A study of Homo sapiens with 12 samples.

Results

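The genes described here encode the proteins of the cytosolic and the mitochondrial ribosome. The rule that chose them uses symbols: 155 of the 16389 genes of the count table carried an RPL, RPS, RPLP or RPSA symbol (81 cytosolic genes, 50 of the large and 31 of the small subunit) or an MRPL or MRPS symbol (74 mitochondrial genes, 46 of the large and 28 of the small subunit). All 155 passed the filter on low counts in every comparison.

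HepG2 is a cell line long established from a human liver tumour, and it stood here as a transformed model of the hepatocyte, not as primary liver. The cells were kept in medium with 5.5 mM glucose (LG) or were moved to 20 mM glucose for 48 h (HG). Further cultures of each kind received 1 mM valproic acid (VPA), an anticonvulsant that inhibits histone deacetylases, for another 12 h (LGV and HGV). Polyadenylated RNA of 3 libraries per group was sequenced, and whether the cells without VPA were harvested at the same time as those with VPA was not given in the sources used here. Nothing states that the 3 libraries came from separate cultures, so the p-values measure the spread between these libraries, which may be technical.

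The cytosolic ribosome makes all proteins encoded in the nucleus. Its proteins are needed in nearly equal amounts, their genes are among the most active of a dividing cell, and many of their mRNAs begin with a 5′ terminal oligopyrimidine (TOP) tract, a C followed by a run of C and T, through which growth signals via the kinase mTOR adjust their translation. The mitochondrial ribosome translates the few mRNAs made from mitochondrial DNA, which encode subunits of the respiratory chain and of ATP synthase. All its proteins are encoded in the nucleus, made in the cytosol and imported. In liver cells, both machines serve a large output: secreted plasma proteins from the first, oxidative metabolism from the second.

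The 2 groups of genes differ at their start sites. RefSeq promoter windows (GRCh38.p14, 250 bases before to 50 after an annotated start) were matched by symbol for 66 cytosolic and 65 mitochondrial genes. A TOP tract, taken as a C at the annotated start followed by at least 4 pyrimidines, was found in 47 of 66 cytosolic genes (71.2%), in 6 of 65 mitochondrial genes (9.23%) and in 5.14% of all 27305 genes with a window, or 7.15% of the 10327 of these that are in the count table. Start sites are shown here from 10 bases before to 20 bases from the start, with the TOP tract in capitals, for the most abundant member (RPS6), an acidic stalk protein (RPLP0), and RPL10, RPL22 and RPS27. They are followed by the paralogues RPL22L1, RPS27L and RPL7L1 and by MRPL54, on which results below turn.
RPS6, chr9:19380217-19380246, minus strand: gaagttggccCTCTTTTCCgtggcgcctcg
RPLP0, chr12:120201092-120201121, minus strand: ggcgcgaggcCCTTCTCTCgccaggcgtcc
RPL10, chrX:154398367-154398396, plus strand: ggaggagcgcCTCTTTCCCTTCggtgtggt
RPL22, chr1:6199576-6199605, minus strand: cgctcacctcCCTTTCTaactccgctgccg
RPS27, chr1:153990752-153990781, plus strand: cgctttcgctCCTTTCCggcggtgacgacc
RPL22L1, chr3:170870176-170870205, minus strand: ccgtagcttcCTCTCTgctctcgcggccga
RPS27L, chr15:63157458-63157487, minus strand: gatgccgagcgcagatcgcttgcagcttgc
RPL7L1, chr6:42879606-42879635, plus strand: gtgcggcgccgtagctaggagcggacgcca
MRPL54, chr19:3762672-3762701, plus strand: gtgcacttgcaagctgcccgcaatacgtca
In these windows RPS6, RPLP0, RPL10, RPL22, RPS27 and RPL22L1 began with a TOP tract, and RPS27L, RPL7L1 and MRPL54 did not. RPL10 has other annotated starts, which do not begin with such a tract.

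The mitochondrial genes carried another motif more often. The letters AAGATGG, searched on both strands as the core of the YY1 site, were found in 23 of 65 mitochondrial genes (35.4%), in 9 of 66 cytosolic genes (13.6%), in 9.3% of the genes of the table and in 7.11% of all genes. Where they lie just after the start, the ATG within them can be the start codon, so a match is a description and not a site. The ETS-family letters CCGGAAG, also searched on both strands, occurred in 43.1% of mitochondrial, 36.4% of cytosolic and 12.2% of all genes, and in 21.2% of the genes of the table. The E-box CACGTG was found in 13.8% of mitochondrial, 7.58% of cytosolic and 8.77% of all genes, and in 12.3% of the genes of the table, near the mitochondrial share. GGGCGG, the SP1 letters, was found in 61.5% of mitochondrial and 57.6% of cytosolic genes, above the 48.3% of all genes and below the 75.8% of the genes of the table. Matches are shown in capitals for 4 mitochondrial genes whose mRNA fell with VPA in both media (MRPS18B, MRPS7, MRPS27 and MRPL45, with the YY1 letters) and for MRPL54 and MRPS26 with the ETS letters, here read from the other strand.
MRPS18B, chr6:30617852-30617881, plus strand: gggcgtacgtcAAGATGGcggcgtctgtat
MRPS7, chr17:75261887-75261916, plus strand: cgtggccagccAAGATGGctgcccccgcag
MRPS27, chr5:72320206-72320235, minus strand: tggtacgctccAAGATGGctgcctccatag
MRPL45, chr17:38297170-38297199, plus strand: tttgcgggaacAAGATGGcagcccccatac
MRPL54, chr19:3762650-3762679, plus strand: gccactgacgtCTTCCGGaaacgtgcactt
MRPS26, chr20:3046004-3046033, plus strand: tccccgcgccgCTTCCGGggcacggtggcg

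The libraries held 29798442 to 45572694 counted reads. All 8 hepatocyte markers examined were present. Their summed level, in CPM (counts scaled to a common library size, here with TMM factors), was 47380 to 52710 in LG, 46550 to 54920 in HG, 36500 to 37160 in LGV and 41320 to 54910 in HGV, so that LGV lay below LG without overlap. HNF4A, a liver transcription factor, was lower with VPA in both media without overlap, at 366.6 to 458.1 CPM in LG, 228.3 to 260.9 in LGV, 399.8 to 408.7 in HG and 286.0 to 301.5 in HGV. The 8 markers did not all move this way. TTR was higher with VPA in high glucose without overlap, at 125.5 to 152.7 CPM in HG and 157.6 to 231.6 in HGV. In low glucose its ranges overlapped, and those of AFP overlapped in both media. Of 7 markers of other cell types, 3 were in the table (ACTA2, CD14 and COL1A1). Their summed level was 18.6 to 22.0 CPM in LG, 40.1 to 43.9 in HG, 12.4 to 13.4 in LGV and 23.3 to 30.2 in HGV, so that it moved with both treatments at a low level. ACTA2 made up most of this sum. COL1A1 went the other way with VPA, from 0.125 to 0.374 CPM in LG to 0.747 to 1.44 in LGV. In high glucose it went from 0.280 to 0.419 CPM in HG to 1.24 to 2.64 in HGV. The part of either set of markers in the results on ribosomal proteins was not tested. In bulk RNA, fewer cells of a type and less RNA per cell cannot be told apart.

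Cytosolic ribosomal protein mRNAs were abundant and mitochondrial ones were not. The median level was 625 CPM for a cytosolic gene and 36.1 CPM for a mitochondrial gene, and per kilobase of the annotated transcript it was 727 and 27.2 CPM. RPS6, the small-subunit protein that S6 kinase phosphorylates, had the most counts of all members (2950 CPM), and per length RPL27 led with 3478 CPM per kb. The lowest cytosolic gene on both scales was RPL3L, the striated-muscle paralogue of RPL3, with 18 to 78 counted reads per library (0.478 CPM per kb). Among mitochondrial genes MRPL33 was the highest per length (132.5 CPM per kb) and MRPL42 the lowest (2.12 CPM per kb), the latter over an annotated transcript of 15557 bases. Together the cytosolic genes took 5.42 to 7.15% of the counted reads of a library, and the mitochondrial genes 0.300 to 0.380%.

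Some core proteins of the cytosolic ribosome were counted at levels far below the median of the group. There were 18 cytosolic genes under a mean of 100 CPM, among them RPL36A (3.96 CPM per kb), RPS26 (4.48 CPM per kb) and RPL7 (6.04 CPM per kb). The table of gene names listed 52, 36 and 61 pseudogenes named after these genes. The median number of named pseudogenes was 19.5 for the 18 low genes and 12 for the other 63. Reads of 50 nt that match a gene and its processed copies equally well receive a low mapping quality, and the study kept only reads above a quality threshold of 10. Exons of 6 cytosolic genes overlap those of another gene on the same strand. RPL36A (with RPL36A-HNRNPH2), RPL17 (with RPL17-C18orf32) and RPS10 (with RPS10-NUDT3) of these were among the 18 low genes. The part of pseudogenes or of exon overlap in the low levels was not tested, and the levels of such genes are uncertain. In 29 cytosolic genes, 60 snoRNA genes lay within the gene, and in the mitochondrial genes there were none.

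Cytosolic ribosomal protein mRNAs rose and fell together from library to library. HGV replicate 2 stood above its group, with 77 of 81 cytosolic genes over the group mean and a median deviation of 0.25 (log2). LG replicate 3 stood below, with 3 of 81 genes over the mean and a deviation of −0.18. LG replicate 2, HG replicate 3 and LGV replicate 2 were also high, with 77, 75 and 78 genes over the mean. The SD between replicates had a median of 0.20 (log2) over the cytosolic genes, and 0.081 once the median deviation of each library was removed. Over the mitochondrial genes it was 0.15 before and 0.12 after, and over 1845 other genes of at least 100 CPM it was 0.15. Most of the replicate spread of the cytosolic genes was thus shared by the whole group of genes.

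Some other features of these libraries deviated in the same direction, and some did not. In HGV replicate 2 the median deviation was 0.28 for 115 ribosomal protein pseudogenes, 0.27 for 30 mitochondrially encoded genes and 0.21 for 99 other abundant genes with transcripts under 1000 nt, while it was −0.11 for 547 abundant genes with transcripts over 5000 nt. In LG replicate 3 the values were −0.13, −0.04, −0.07 and −0.10 in that order. The mitochondrial ribosomal protein genes deviated by 0.16 in HGV replicate 2 and by 0.06 in LG replicate 3, there opposite to the cytosolic genes. The part of transcript length or of fragment recovery in the shared movement was not tested. The cytosolic counts and medians are therefore also given without HGV replicate 2 or LG replicate 3, wherever these entered the comparison of groups. In comparisons of 2 groups their omission lowered the median, and omission of some other libraries moved it toward 0. Over each library left out in turn, the cytosolic median was −0.25 to −0.08 for HG against LG and −0.24 to −0.05 for LGV against LG. It was −0.31 to −0.09 for HGV against HG and −0.38 to −0.13 for HGV against LGV.

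**Figure D1:**
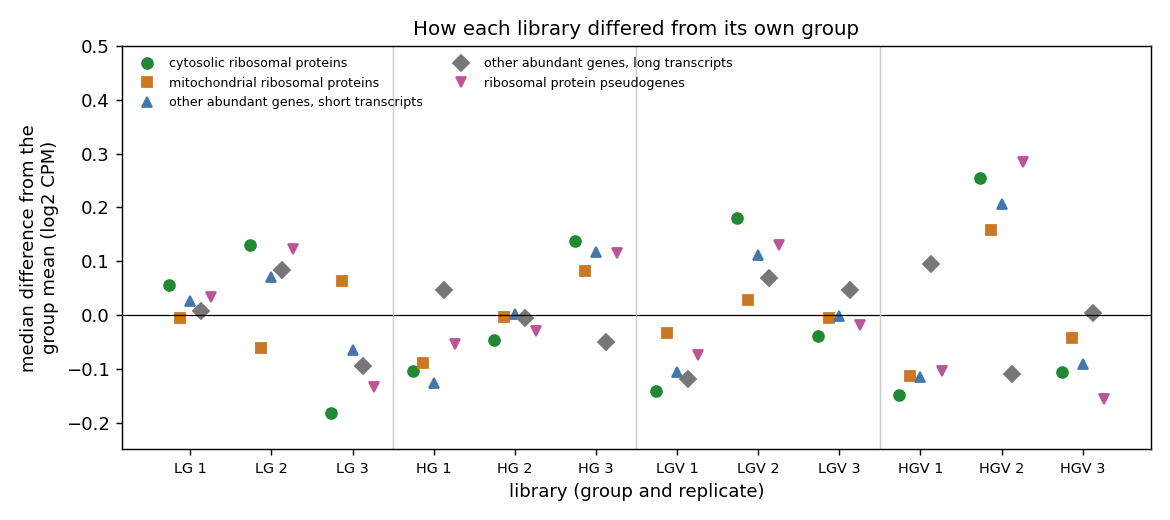
Median difference of each gene group from the mean of its own group of libraries (y axis, log2 CPM) in each of the 12 libraries (x axis, group and replicate). Cytosolic ribosomal protein genes (circles) reach 0.25 in HGV replicate 2 and −0.18 in LG replicate 3, with pseudogenes and other short transcripts on the same side of 0.

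The summed level of the cytosolic genes did not separate the groups. It was 74040, 78240 and 62120 CPM in the LG libraries and 58600, 60110 and 68950 CPM in HG. With VPA it was 58360, 73730 and 63490 CPM in LGV and 49540, 66360 and 51650 CPM in HGV. These ranges overlapped in all 4 comparisons. The mitochondrial sum was 3828, 3770 and 3914 CPM in LG, and 2912, 3129 and 2997 CPM in LGV, which did not overlap. It was 3471, 3651 and 3887 CPM in HG and 2742, 3291 and 2860 CPM in HGV, again without overlap, and the HG and LG ranges did overlap. As shares of raw counts, the LG and LGV libraries were still apart (0.332 to 0.376% and 0.303 to 0.319%), whereas HGV replicate 2 (0.344%) reached the lowest HG library (0.344%).

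**Figure D2:**
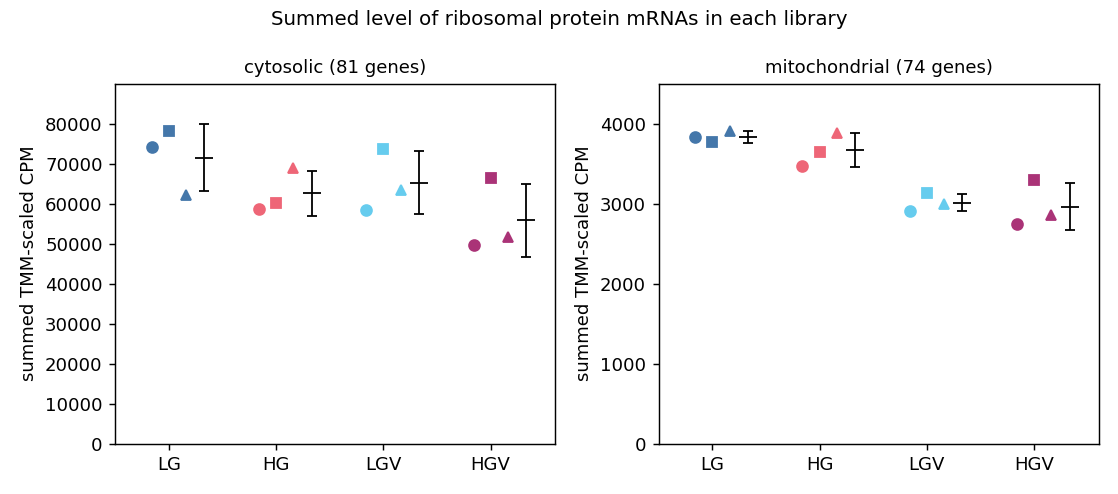
Summed TMM-scaled CPM (y axis, from 0) of the 81 cytosolic and the 74 mitochondrial genes in each library. Circles, squares and triangles are replicates 1, 2 and 3, and the black bars give mean ± SD (n = 3). The mitochondrial sum lay at 3471 to 3914 CPM without VPA and at 2742 to 3291 CPM with it.

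VPA in low glucose lowered a large part of the mitochondrial genes and few of the cytosolic ones. Of 74 mitochondrial genes, 34 fell and 1 rose (edgeR quasi-likelihood test, FDR of at most 0.05 over all genes tested), where 19.9% of 15944 genes tested fell and 21.7% rose. The median log2 fold change was −0.29 over the mitochondrial genes, −0.13 over the cytosolic genes and −0.01 over all genes tested. Of 81 cytosolic genes, 5 fell and none rose, which is below the background share, although 72 had a lower estimate. Without LG replicate 3, 7 fell, where 17.9% of all genes fell, and the cytosolic median was −0.21. Other genes of at least 100 CPM had a median of −0.18, and 34.8% of them fell. The 31 small-subunit genes, none of them called, lay between −0.31 and 0.20. The 50 large-subunit genes, which held all 5 calls, lay between −1.07 and 0.18. With library size alone as the scaling, the median of all genes moved up to 0.16, and 18 mitochondrial genes fell and 5 rose. Of all genes, 12.3% then fell and 40.5% were called in either direction. In that scaling the cytosolic median was 0.03, against −0.13, so that its direction depended on the scaling.

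VPA in high glucose gave a like number of calls. Here 35 mitochondrial genes fell and 2 rose, where 20.2% of 16188 genes tested fell and 25.8% rose. The median log2 fold change was −0.31 over the mitochondrial, −0.16 over the cytosolic and 0.02 over all genes tested. Of the cytosolic genes, 5 fell and none rose, with 77 of 81 lower in estimate, and of other genes of at least 100 CPM (median −0.13) 33.7% fell. Without HGV replicate 2, however, 45 of 81 cytosolic genes fell, with a median of −0.31, where 21.3% of all genes fell, so this 1 library decided the cytosolic count. It was 3 without HG replicate 3, HGV replicate 1 or HGV replicate 3. The mitochondrial count was 43 lower and 1 higher without it. A correction for GC content and transcript length also raised the cytosolic count, to 26, but under it 38.5% of all genes fell. It moved the median of all genes from 0.02 to −0.17 and the cytosolic median from −0.16 to −0.23.

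**Figure D3:**
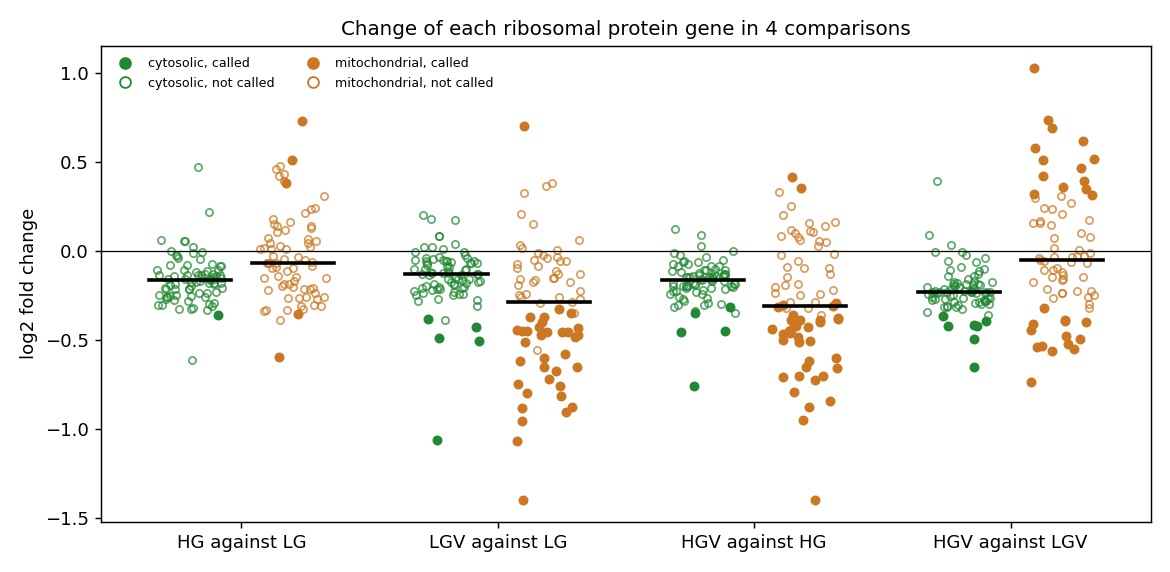
Log2 fold change (y axis) of every cytosolic (green) and mitochondrial (orange) ribosomal protein gene in 4 comparisons. Filled points passed an FDR of 0.05, and black lines are medians. The mitochondrial medians are −0.29 and −0.31 for the VPA comparisons and −0.07 and −0.05 for the glucose comparisons.

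The 2 VPA comparisons share no library, so each serves as a check of the other. Of the mitochondrial genes that fell, 26 did so in both media, which is 76.5% of those in low glucose and 74.3% of those in high glucose. Over all 15743 genes tested in both, the same shares were 73.6 and 71.8%. All 35 mitochondrial genes called in low glucose had the same sign in high glucose, and all 37 called in high glucose had the same sign in low glucose. Across the 74 mitochondrial genes Pearson's r between the 2 effects was 0.87 and Spearman's rho 0.85, and across the 81 cytosolic genes they were 0.44 and 0.58. These describe genes measured in the same libraries, which are not independent points. Agreement in sign and correlation were not computed over all genes, so neither sets these genes apart.

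**Figure D4:**
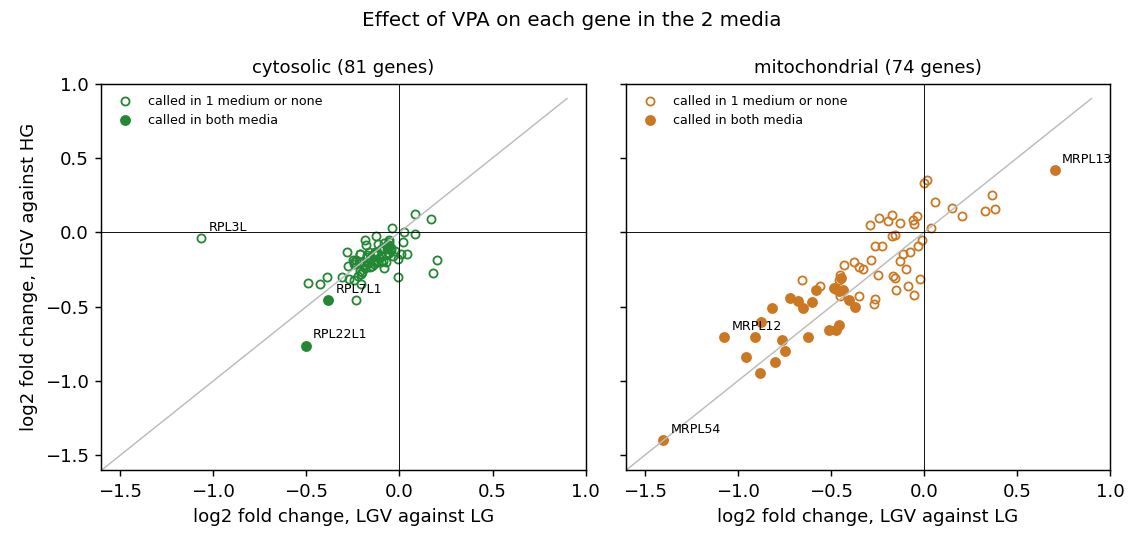
Log2 fold change with VPA in low glucose (x axis) against that in high glucose (y axis) for each gene, with the line of equal change in grey. Filled points were called in both media. The mitochondrial genes spread along the line from MRPL54 (−1.40 on both axes) to MRPL13 (0.70 and 0.42), and the cytosolic genes crowd near 0.

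MRPL54, a small protein of the mitochondrial large subunit (ENSG00000183617, GRCh37 chromosome 19, 3762680 to 3768573), fell most. Its level was 29.84, 29.67 and 28.85 CPM in LG and 10.3, 11.6 and 11.3 CPM in LGV. In high glucose it was 21.2, 26.5 and 28.6 CPM before and 7.48, 11.1 and 10.3 CPM after VPA. Every library with VPA was below every library without it. The log2 fold change was −1.40 in both media (SE 0.13 and 0.17, FDR 1.36e-06 and 2.424e-05).

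Other large-subunit genes followed. MRPL15, whose product lies on the large subunit, had 64.99, 73.81 and 75.64 CPM in LG and 37.2, 37.5 and 40.8 CPM in LGV. It had 69.0, 68.7 and 80.2 CPM in HG and 36.5, 43.1 and 33.4 CPM in HGV. The groups with and without VPA did not overlap, and the log2 fold changes were −0.88 and −0.95 (SE 0.12 for each). MRPL9 changed by −0.96 and −0.84 on the log2 scale, from 40.4 to 41.7 CPM in LG to 20.2 to 21.6 CPM in LGV. Its exons overlap those of OAZ3 on the other strand and of another gene on the same strand, and the strand setting of the counting was not given in the sources used here. Such overlap was found for 13 mitochondrial genes on the same strand, among them MRPL12, MRPL2 and MRPS25. On the other strand it was found for 19, among them MRPL3, MRPS7 and MRPS25, and for 10 cytosolic genes, RPL10 included.

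MRPL12 is part of the stalk, where translation factors dock, and has also been reported to bind mitochondrial RNA polymerase. Its level was 30.1, 18.3 and 34.5 CPM in LG and 14.3, 11.6 and 13.2 CPM in LGV, with LG replicate 2 nearest to the treated libraries. The log2 fold change was −1.07 (SE 0.20, FDR 0.0006081) in low glucose and −0.70 (SE 0.13, FDR 0.0009482) in high glucose.

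Small-subunit genes fell as well, 11 of 28 in low and 13 of 28 in high glucose. MRPS18B, a homologue of bacterial S18, had 148.9, 150.1 and 129.0 CPM in LG and 78.2, 83.2 and 82.7 CPM in LGV. In high glucose it had 109.0, 129.3 and 125.1 CPM without and 64.97, 73.54 and 59.7 CPM with VPA. No library with VPA reached one without. Its log2 fold changes were −0.80 and −0.88 (SE 0.11 for each). MRPS26, a small-subunit protein without a bacterial counterpart, fell by 0.91 and 0.71 on the log2 scale, and MRPS7, of the small-subunit head, fell by 0.88 and 0.60.

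Sums and medians ranked the 2 subunits differently. By gene, the median log2 fold change in low glucose was −0.35 over the large and −0.24 over the small subunit, and in high glucose −0.31 and −0.30. By sum, the ratio of large-subunit to small-subunit counts rose from 1.47 to 1.49 in LG to 1.52 to 1.56 in LGV, and from 1.42 to 1.47 in HG to 1.49 to 1.59 in HGV. The small-subunit sum thus lost the larger share, with no overlap of libraries in either medium. For the cytosolic ribosome this ratio was 1.47 to 1.48 in LG, 1.48 to 1.53 in HG, 1.43 to 1.47 in LGV and 1.47 to 1.49 in HGV.

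Of the 74 mitochondrial genes, 66 had estimates of the same sign in both media, and 56 were lower in both. Of the 81 cytosolic genes, 74 had the same sign and 71 were lower in both, by smaller amounts at the median. MRPL13 was the only mitochondrial gene called higher with VPA in both media. Its product is a conserved protein of the large subunit. It had 20.1, 25.6 and 25.6 CPM in LG and 40.1, 34.3 and 41.0 CPM in LGV. In high glucose it had 24.4, 21.1 and 25.8 CPM without and 29.1, 30.7 and 35.4 CPM with VPA. The libraries with VPA were higher in each medium without overlap, by a log2 fold change of 0.70 (SE 0.14, FDR 0.000887) and 0.42 (SE 0.12, FDR 0.0147). In high glucose its call was lost without HG replicate 2 or without HGV replicate 3. MRPL41 was called in high glucose (0.35, SE 0.13, FDR 0.03799), its estimate in low glucose was 0.02, and its call was lost under 8 of 16 alternatives.

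**Figure D5:**
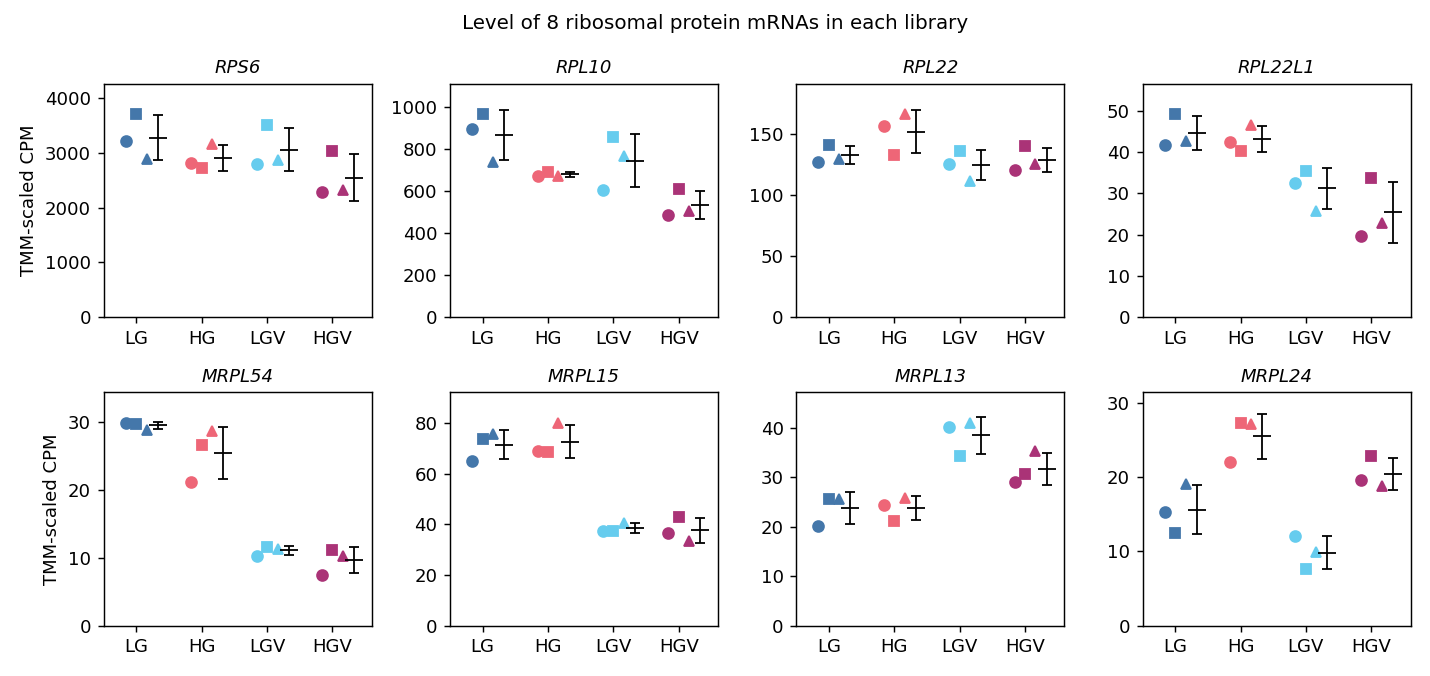
TMM-scaled CPM (y axis, from 0) of 8 genes in each library by group. Circles, squares and triangles are replicates 1, 2 and 3, and black bars give mean ± SD (n = 3). MRPL54 and MRPL15 separate with VPA in both media, MRPL13 moves the other way, MRPL24 is highest in HG, RPL22L1 falls with VPA while RPL22 overlaps, and the RPS6 groups overlap.

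Of the 8 cytosolic genes that fell with VPA in either medium, 4 were paralogues (RPL22L1, RPL7L1, RPS27L and RPL3L), and RPL9 and RPL21 had under 100 CPM. RPL26L1, another paralogue, was not called. The list depended on single libraries. Most cytosolic genes fell in high glucose without HGV replicate 2, and no call was left in low glucose without LGV replicate 3. It therefore does not set paralogues apart from the other cytosolic genes. RPL22L1, a paralogue of the large-subunit RNA-binding protein RPL22, had 41.9, 49.3 and 42.8 CPM in LG and 32.6, 35.5 and 25.7 CPM in LGV. It had 42.5, 40.4 and 46.7 CPM in HG and 19.7, 33.8 and 22.8 CPM in HGV. In each medium no library with VPA overlapped those without, and the log2 fold changes were −0.50 (SE 0.14, FDR 0.009282) and −0.76 (SE 0.17, FDR 0.002935). In low glucose its call was lost with library size alone and without LGV replicate 3.

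RPL22 itself showed no such difference. It had 126.8, 140.7 and 129.2 CPM in LG, 125.4, 135.6 and 111.3 CPM in LGV, 156.5, 132.5 and 166.0 CPM in HG and 120.1, 139.7 and 125.4 CPM in HGV. The changes were −0.08 (SE 0.12) and −0.24 (SE 0.11), and neither passed. The counts of RPL22L1, not divided by length, were therefore 33.0 to 35.0% of those of RPL22 in LG and 23.1 to 26.2% in LGV, and at 27.1 to 30.5% in HG and 16.4 to 24.2% in HGV. Both mRNAs begin with a TOP tract.

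RPL7L1, a homologue of RPL7 found in nuclear precursors of the large subunit, fell in both media. It had 210.7, 226.5 and 216.0 CPM in LG and 161.9, 179.1 and 156.7 CPM in LGV, against 188.4, 207.6 and 191.9 CPM in HG and 146.2, 155.8 and 127.3 CPM in HGV. The groups did not overlap, with log2 fold changes of −0.38 (SE 0.11, FDR 0.01503) and −0.45 (SE 0.11, FDR 0.003705). The counted level of RPL7 was only 5.39 to 10.6 CPM, so a ratio of the pair has no meaning here. RPL26L1 had 10.5 to 16.6 CPM, with counts at 2.60 to 3.51% of those of RPL26, and neither gene was called in any comparison.

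RPS27L, a paralogue of the zinc-finger protein RPS27 and a known target of p53, passed in high glucose alone. It had 87.0, 73.9 and 88.1 CPM in HG and 58.5, 67.9 and 55.6 CPM in HGV (log2 fold change −0.45, SE 0.11, FDR 0.006152). In low glucose the estimate was −0.23 (SE 0.11, FDR 0.1007). The difference between the media did not pass for this or any other member. The cytosolic RPL10, which joins late and completes the large subunit, changed by −0.35 (SE 0.11, FDR 0.02197) in high glucose, a call lost under 5 of 16 alternatives. RPL6 changed by −0.31.

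In low glucose the other cytosolic calls were on low genes. RPL9 had 47.3, 46.8 and 41.4 CPM in LG and 29.84, 36.15 and 29.76 CPM in LGV, without overlap (−0.49, SE 0.12, FDR 0.005854). RPL21 had 9.34 to 10.9 CPM in LG and 7.21 to 8.18 CPM in LGV (−0.43, SE 0.16, FDR 0.04768), a call lost under 10 of 16 alternatives. RPL3L had 1.17 to 1.95 CPM in LG and 0.585 to 0.810 CPM in LGV (−1.07, SE 0.31, FDR 0.01243). It was lost without LG replicate 2, LGV replicate 2 or LGV replicate 3, and the number of cytosolic genes called in low glucose fell to 0 without LGV replicate 3 and to 3 without LG replicate 2 or LGV replicate 2.

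High glucose changed few ribosomal protein genes in cells without VPA. Of the mitochondrial genes 3 rose and 2 fell, and of the cytosolic genes 1 fell, where 12% of 15452 genes tested rose and 12.7% fell. Both counts were below the background. The median log2 fold change was −0.07 over the mitochondrial, −0.16 over the cytosolic and 0.01 over all genes tested, and 75 of 81 cytosolic genes had a lower estimate. Other genes of at least 100 CPM, the range of most cytosolic members, had a median of −0.17, and 526 of 1845 (28.5%) fell. Without LG replicate 3, 25 cytosolic genes fell and 1 rose, with a median of −0.25, where 17.0% of all genes fell, so that this library decided the count, and the count was 0 without any other library. The mitochondrial count was 13 without LG replicate 3 and 2 or 3 without any other library. With library size alone, 7 mitochondrial genes rose and none fell, and no cytosolic gene was called. Of all genes, 8.39% then fell and 22.44% were called in either direction. With the GC and length correction 9 cytosolic genes fell, and 4 mitochondrial genes rose and 16 fell, where 18.8% of all genes fell.

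MRPL24, a large-subunit protein that binds early in assembly in bacteria, rose with high glucose. It had 15.3, 12.4 and 19.1 CPM in LG and 22.0, 27.3 and 27.2 CPM in HG (0.73, SE 0.17, FDR 0.004858). The groups did not overlap. MRPS25, a small-subunit protein, had 46.4, 40.4 and 48.2 CPM in LG and 68.5, 60.7 and 60.4 CPM in HG (0.51, SE 0.13, FDR 0.007072). MRPL2, near the catalytic centre of the large subunit, had 48.0 to 53.9 CPM in LG and 58.1 to 71.4 CPM in HG (0.38, SE 0.13, FDR 0.04068).

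MRPS6 and MRPS15 fell. MRPS6 had 25.3, 39.7 and 22.1 CPM in LG and 15.7, 19.1 and 22.0 CPM in HG, with the ranges nearly touching (−0.60, SE 0.20, FDR 0.03237). It shares exons on the same strand with SLC5A3, the myo-inositol transporter, so its counts are uncertain. MRPS15 had 61.6 to 75.3 CPM in LG and 50.1 to 56.6 CPM in HG (−0.35, SE 0.13, FDR 0.04927). RPS7, which in excess binds MDM2, was the cytosolic gene that fell, from 706.0, 701.2 and 586.2 to 504.3, 468.9 and 554.4 CPM (−0.36, SE 0.12, FDR 0.03802). These 3 calls and that of MRPL2 were lost under 5 to 9 of 16 alternatives each.

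With VPA present, high against low glucose gave more calls. Of the mitochondrial genes 14 rose and 14 fell, where 21.2% of 16208 genes tested rose and 19.5% fell, so both shares were near the background. Of the cytosolic genes 7 fell and none rose. The median log2 fold change was −0.05 over the mitochondrial, −0.23 over the cytosolic and 0.01 over all genes tested, and 78 of 81 cytosolic genes had a lower estimate. Other genes of at least 100 CPM had a median of −0.17, and 33.4% of them fell. Without HGV replicate 2, 47 cytosolic genes fell, with a median of −0.38, where 19.5% of all genes fell, and leaving out any other library gave 2 to 12. The mitochondrial count was 17 without LGV replicate 2 and 16 without LGV replicate 3. With library size alone 17 mitochondrial genes rose and 9 fell, where 14.2% of all genes fell and 37.45% were called in either direction.

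The 2 glucose comparisons, with and without VPA, share no library. All 5 mitochondrial genes called without VPA were called in the same direction with it, and all 28 called with VPA had the same sign without it. MRPL24 had 12.1, 7.60 and 9.87 CPM in LGV and 19.6, 22.8 and 18.7 CPM in HGV (1.03, SE 0.16, FDR 0.0001072), which is the largest change of a member between the media. MRPS25 changed by 0.69 and MRPL2 by 0.51. MRPL17 (0.73, SE 0.13) and MRPL16 (0.62, SE 0.14), both proteins of the large subunit with bacterial counterparts, also rose. Across the 74 genes Pearson's r of the 2 glucose effects was 0.88 and Spearman's rho 0.82, again over points from shared libraries. Here too, agreement in sign and correlation were not computed over all genes.

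The mitochondrial genes that fell between LGV and HGV were led by MRPS6, from 29.84, 46.12 and 35.49 to 19.62, 30.46 and 17.47 CPM, with HGV replicate 2 just above the lowest LGV library (−0.74, SE 0.19, FDR 0.004108). MRPL44, of the ribonuclease III fold and placed at the tunnel exit, changed by −0.56 (SE 0.13). MRPS15 changed by −0.55 and MRPL3 by −0.54 (SE 0.12 for each). MRPL3 was lower with VPA in both media as well, at 88.0 to 102.7 CPM in LG, 63.3 to 69.1 CPM in LGV, 64.9 to 78.8 CPM in HG and 41.6 to 51.1 CPM in HGV. MRPS36, which also fell (−0.52), has since been assigned to the oxoglutarate dehydrogenase complex and not to the ribosome.

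The 7 cytosolic genes that fell between LGV and HGV were RPS27, RPL10, RPS27L, RPL11, RPS7, RPL19 and RPL6. RPS27 had 22.9, 31.0 and 22.4 CPM in LGV and 15.7, 18.2 and 15.1 CPM in HGV, without overlap (−0.65, SE 0.15, FDR 0.001915). RPS27 is one of the low genes described above, with 30 named pseudogenes, so its level is uncertain. The counts of RPS27L were 264 to 538% of those of RPS27 over the 12 libraries, a ratio with the same limit. RPL10 had 606.4, 856.0 and 767.8 CPM in LGV and 487.7, 608.9 and 502.6 CPM in HGV (−0.50, SE 0.15, FDR 0.01284), with HGV replicate 2 just above the lowest LGV library. RPL11, which with 5S rRNA can hold MDM2, had 1428, 1670 and 1511 CPM in LGV and 1128, 1106 and 1251 CPM in HGV (−0.42, SE 0.14, FDR 0.02166). RPS27L changed by −0.42 (SE 0.12, FDR 0.008552). The calls of RPL10 and RPL11 were each lost without HGV replicate 1, LGV replicate 2 or LGV replicate 3, and that of RPS27L with the GC and length correction.

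Whether the effect of VPA depended on glucose was tested over all 12 libraries. No member passed, and 7 of 16389 genes did (0.0427%). At an unadjusted p under 0.05 there were 1 cytosolic and 1 mitochondrial gene, of 1852 genes in all, and DESeq2 called none of the members and 161 genes in all. The smallest p among the cytosolic genes was that of RPL3L (interaction 1.04 on the log2 scale, SE 0.42, FDR 0.3293). Among the mitochondrial genes it was that of MRPS30 (−0.36, SE 0.17, FDR 0.4303), followed by MRPL14 (0.35, SE 0.18, FDR 0.4691). With SE of this size a moderate difference between the media was not detectable.

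Some ribosomal subunits carry other symbols. Of 7 mitochondrial ones, 3 fell with VPA in low and 2 in high glucose (medians −0.31 and −0.18), where 19.9 and 20.2% of all genes fell. They were led by ICT1, the peptidyl-tRNA hydrolase of the large subunit, at −0.91 (SE 0.15) and −0.65 (SE 0.15). Of 4 cytosolic ones none passed with VPA (medians −0.16 and −0.12), and RPL36AL, an expressed copy of RPL36A, fell with glucose from 86.5, 86.1 and 88.5 CPM in LG to 46.3, 45.8 and 54.0 CPM in HG (−0.82, SE 0.12, FDR 0.0001374). It also fell between LGV and HGV (−0.77, SE 0.12). RPL36A itself was at 3.01 CPM over all libraries, with the pseudogenes and the exon overlap described above.

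Further mRNAs known to carry a TOP tract encode translation factors and other proteins. Of 17, 2 fell in low and 7 in high glucose with VPA (medians −0.20 and −0.29), 5 fell between LGV and HGV and 1 fell between LG and HG, and none rose in any. These counts were 11.8, 41.2, 29.4 and 5.88% of the list in that order. Of all genes 19.9, 20.2, 19.5 and 12.7% fell in these comparisons. Of other genes of at least 100 CPM, 34.8, 33.7, 33.4 and 28.5% fell. EIF4B, a cofactor of the mRNA helicase, led each time. Its level was 593.6, 680.1 and 548.1 CPM in LG, 479.0, 431.2 and 478.0 CPM in HG, 342.6, 459.2 and 406.7 CPM in LGV and 234.7, 258.2 and 246.7 CPM in HGV. Its log2 fold changes with VPA were −0.58 (SE 0.14) and −0.91 (SE 0.10).

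The nucleolar factors that build the cytosolic ribosome were also examined. Of 54, 28 fell and 1 rose in low glucose and 28 fell and none rose in high glucose, with medians of −0.35 and −0.33. Of all genes 19.9% and 20.2% fell, and of other genes of at least 100 CPM 34.8% and 33.7%. UBTF, the factor that opens ribosomal DNA for RNA polymerase I, had 108.3, 105.6 and 117.1 CPM in LG and 40.9, 37.6 and 37.3 CPM in LGV. It had 107.5, 111.3 and 118.7 CPM in HG and 28.1 to 32.3 CPM in HGV. The log2 fold changes were −1.50 (SE 0.11) and −1.90 (SE 0.10). With glucose 7 of the 54 fell and 1 rose, led by MPHOSPH10 (−0.88) and EMG1 (0.57). With VPA present 14 fell and 2 rose, led by WDR74 (−0.78) and EMG1 (0.89). The shares that fell were 12.96% without and 25.93% with VPA, where 12.7 and 19.5% of all genes fell. Among other genes of at least 100 CPM, 28.5 and 33.4% fell. The shares that rose were 1.852 and 3.704%, where 12 and 21.2% of all genes rose.

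Of 35 factors of mitochondrial translation and ribosome assembly, 13 fell and 2 rose with VPA in low glucose, and 12 fell and 2 rose in high glucose (medians −0.25 and −0.10). The shares that fell were 37.1 and 34.3%, where 19.9 and 20.2% of all genes and 34.8 and 33.7% of other genes of at least 100 CPM fell. The share that rose was 5.71% in each medium, where 21.7 and 25.8% of all genes rose. MRM1, an rRNA methyltransferase, led in low glucose with −1.54 (SE 0.33), beside MTRF1L, of the release factor family, which rose by 0.51 (SE 0.17). The initiation factor MTIF2 led in high glucose with −0.76 (SE 0.18), and GFM2, a factor of ribosome recycling, rose there by 0.66 (SE 0.12). Between HG and LG 2 fell and 2 rose, led by MTRF1L (−0.51) and MTERFD1 (0.98), and between HGV and LGV 4 fell and 6 rose, led by MTRF1L (−0.67) and MRM1 (1.23). Each of these counts was below the background share. Of all genes 12.7% fell and 12% rose with glucose without VPA, and 19.5 and 21.2% with it. The list of 22 genes that control ribosomal protein synthesis held 9 that fell and 2 that rose with VPA in low glucose, and 8 and 3 in high glucose (medians −0.25 and −0.14). That is 40.9 and 36.4% lower and 9.09 and 13.6% higher, against the shares of all genes and of abundant genes given above. EIF4EBP1, the mTOR-controlled repressor of cap-dependent translation, changed by −1.09 (SE 0.12) and −1.03 (SE 0.11), and DEPTOR, a binding partner and inhibitor of mTOR, by 1.35 (SE 0.20) and 1.46 (SE 0.14). With glucose 2 of the 22 fell and none rose, led by SESN2 (−0.62), and with VPA present 6 fell and 2 rose, led by TSC1 (−0.55) and DDIT4 (0.98). That is 9.09% lower without VPA, and 27.3% lower and 9.09% higher with it, against the same shares of all genes.

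The ribosomal protein pseudogenes were rarely called, where with VPA 19.9 and 20.2% of all genes fell and 21.7 and 25.8% rose. Of 114 tested with VPA in low glucose, 3 rose and none fell, and of 108 in high glucose 5 rose and 2 fell. RPLP0P2 led both, from 0.598, 0.175 and 0.281 CPM in LG to 1.83, 1.36 and 1.49 CPM in LGV (2.24, SE 0.39), and from 0.159, 0.269 and 0.308 CPM in HG to 2.58, 2.26 and 3.41 CPM in HGV (3.45, SE 0.31). Its parent RPLP0 had 1314 to 1615 CPM in LG and 1153 to 1465 CPM in LGV, with overlap. With glucose 1 of 109 pseudogenes fell (RPS11P5, −0.88), and with VPA present 2 of 112 fell and 1 rose, led by RPL7AP34 (−0.67) and RPLP0P2 (0.79).

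The start-site letters were set beside the VPA response of the mitochondrial genes as a description. Of the 26 genes that fell in both media, 24 had a promoter window. The YY1 letters were in 12 of these 24 and in 11 of the 41 other mitochondrial genes. The ETS letters were in 41.7 and 43.9%, and a TOP tract in 8.33 and 9.76%. MRPL54, MRPL9 and MRPL12 had no YY1 letters in their windows, and MRPS18B had.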

How the data were processed

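Polyadenylated RNA was sequenced in single 50 nt reads. Per the labels and methods, the authors trimmed the reads, mapped them to GRCh37 (STAR) and assigned them to genes (featureCounts, mapping quality threshold 10). The deposited values are whole-number counts per gene, with genes under a mean of 10 reads left out. The strand setting was not given in the sources used here.

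Counts were tested with edgeR 4.0.16 (R 4.3.3): TMM scaling, a mean of at least 10 counts in the libraries compared, the quasi-likelihood F-test, and Benjamini-Hochberg adjustment over all genes tested, called at an FDR of at most 0.05. The comparisons of 2 groups were fitted on their 6 libraries and the interaction on 12, and the scripts were tested on simulated counts. Levels are CPM of the TMM-scaled library, where 3 counts are 0.0658 to 0.101 CPM, and deviations within a group were taken on log2(CPM + 0.1). With 3 against 3 libraries an exact permutation test cannot go below p = 0.1, so none was used. Lengths and overlaps came from an annotation lifted to GRCh37, which placed 153 of 155 members, and promoter windows from RefSeq (GRCh38.p14). The letters of the NRF1 site were also searched and are not reported here.

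Named genes were, per comparison and ribosome, the 4 called members with the largest change in each direction, for the interaction the smallest p, the extreme members per length, all paralogue pairs, and the leading called gene of each list in each direction. Other members named (such as MRPS7, MRPS27, MRPL45, MRPS36, RPL6, RPL19, RPL36A, RPS26 and RPLP0) were added after their values were seen. Members and lists were chosen with earlier results of these data known. Alternatives were other size factors and filters, DESeq2 1.42.0, a replicate block, an offset for GC content and length (spline of 5 degrees of freedom), a joint fit and leaving out each library.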

Additional observations from a re-analysis of the deposited data

How the results depend on the processing

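The numbers of cytosolic and mitochondrial genes called stayed within 1.5 times of the reported ones under DESeq2 size factors, TMM factors without ribosomal protein genes, no filter and a filter of 1 CPM in at least 3 libraries, in all 5 comparisons. With library size alone the cytosolic count was 0 for HG against LG, 2 for LGV against LG and 3 for HGV against HG, and the mitochondrial count was 23 for LGV against LG. The share of all genes called was 22.44, 40.5 and 46.99% in these comparisons. This scaling moved the median of all genes by about 0.1 to 0.16. The DESeq2 test gave 2 cytosolic and 8 mitochondrial genes for HG against LG, 9 cytosolic for HGV against HG and 14 for HGV against LGV. It called 24.95, 46.26 and 40.86% of all genes in these comparisons. One fit of the 12 libraries gave 0 cytosolic and 10 mitochondrial genes for HG against LG, where 26.53% of all genes were called. The offset for GC content and length gave 9 cytosolic and 20 mitochondrial genes for HG against LG, 26 cytosolic for HGV against HG and 19 for HGV against LGV, while the share of all genes called became 31.7, 59.1 and 43.7% in these comparisons. With it the median of all genes was −0.04, −0.17 and −0.06, and the cytosolic median −0.24, −0.23 and −0.31, in the same order. The causes were not tested.

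Over all genes, deviations of samples with the same replicate number correlated by −0.201 to 0.295 in the 4 comparisons, and of different numbers by −0.387 to 0.409, so the numbers were not taken as pairs. Over the cytosolic genes alone the same numbers correlated by 0.324, 0.67 and 0.173 between HGV and LGV, a hint from the data and not from the design, and HGV replicate 3 correlated more with LGV replicate 1 (0.258). A replicate block gave 0 cytosolic genes for HG against LG, 8 for HGV against HG and 27 for HGV against LGV, and changed no other count by over 1.5 times. Of all genes, 21.69, 50.83 and 45.09% were called with it in these comparisons. The offset together with a replicate block gave 4 cytosolic and 21 mitochondrial genes for HG against LG, 11 cytosolic for LGV against LG, 28 for HGV against HG and 45 for HGV against LGV. The share of all genes called was then 31.37, 51.22, 60.48 and 47.75% in that order.

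Leaving out each library in turn gave 0 to 26 cytosolic and 2 to 13 mitochondrial genes for HG against LG, 0 to 7 cytosolic genes for LGV against LG, 3 to 45 for HGV against HG and 2 to 47 for HGV against LGV, where the mitochondrial count was 16 to 28. The highest cytosolic counts came without LG replicate 3 (26) or without HGV replicate 2 (45 and 47). Of 37 results on named members, 23 kept their call under every alternative, 14 lost it under at least 1, and none changed direction. In the interaction no member was called under any alternative. Depth limits RPL3L, with 18 to 78 counts per library, more than any other member.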
